A study of Mus musculus with 8 samples.

Results

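Knockout epidermis was compared with control epidermis of mouse embryos at E17.5, a late fetal stage shortly before birth, in 4 of the 8 RNA-seq libraries of a series that also holds E15.5. The 4 libraries were chosen by their titles, 2 for each genotype, and are described over the 16342 of 23146 genes that passed a filter on low counts, with most room given to pathways and gene families other than the markers of keratinocyte layers. Controls were E17.5 embryos with floxed Nir alleles (Nir is the gene Noc2l), and knockouts were E17.5 embryos from crosses of floxed Nir mice with Krt14-Cre mice, so floxed alleles are shared by both groups. Krt14-Cre expresses Cre recombinase from the promoter of keratin 14, which is active in basal keratinocytes and their descendants, so other cells of the skin keep the gene. The epidermis had been lifted off the dermis before RNA extraction. The labels do not give the floxed exons, the strain, whether control embryos carried Cre, or whether replicates were separate embryos or pools. The p-values therefore reflect the spread among these libraries alone, and that spread may be a technical one.

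Noc2l encodes a nuclear protein that binds p53, inhibits histone acetylation and takes part in making ribosomes. The epidermis grows from a basal layer whose cells leave it, stratify and form the water barrier late in gestation. Many of the protein families below hold a member used in most cells and a close relative used mainly in epithelia, blood cells or muscle.

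Gene counts summed to between 25226357 and 28895657 per library, and 17928 to 18085 genes were detected. Noc2l had a level of 106 and 121 CPM (counts scaled to a common library size) in controls against 85.4 and 86.9 CPM in knockouts. Its log2 fold change over 2 libraries of each genotype was -0.39 ± 0.10 (adjusted p = 0.0062). Without control replicate 2 it was smaller, -0.29, and the call was lost. Here and below, ± gives an SE derived from the test statistic of a fit to all 8 libraries. This SE is not the spread of the 2 libraries of a genotype. Since the counts cover the whole transcript, this level does not check the genotype labels. Of the genes tested, 53.5% passed: 4371 rose (26.7%) and 4364 fell (26.7%) in knockout libraries, at an adjusted p under 0.05 in edgeR's quasi-likelihood test. Counts of list members below are to be read beside these shares. With library totals as the only scaling, 3295 rose and 6284 fell and the median log2 fold change of all genes was -0.235 in place of -0.02. Small changes below therefore depend on the scaling, and counts with library totals are given where they differ much. Both knockout libraries were above both control libraries for 38.4% of genes and below both for 39.7%.

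The tissue label was checked against cell type markers, and the libraries of the 2 genotypes differed in most of them. The gene with most counts was Krt1 in both control libraries (2.96% and 2.22% of gene counts). In both knockout libraries it was the fibroblast marker Col1a1 (3.35% and 3.73%). Summed over 10 basal keratinocyte markers, the level was 7885 and 7886 CPM in controls and 1463 and 1441 CPM in knockouts (9 fell, 1 rose), and over 9 suprabasal markers it was 57150 and 43490 CPM against 1462 and 1356 CPM (9 fell). Keratin 5 and keratin 14, which define basal keratinocytes, were still present in knockouts: Krt5 was at 424 and 465 CPM and Krt14 at 509 and 534 CPM. The sums of the other cell types were higher in both knockout libraries for most lists. The 10 dermal fibroblast markers summed to 26170 and 30270 CPM in controls and 93840 and 99570 CPM in knockouts (9 rose), and the 9 erythroid markers to 1173 and 1281 against 14930 and 13260 CPM (6 rose). The 10 skeletal muscle markers summed to 16510 and 14790 against 43830 and 32350 CPM (all 10 rose), and the 9 myeloid markers to 360 and 342 against 1240 and 1115 CPM (8 rose). Every marker in the files had counts in at least 1 of the 4 libraries, but Cd3d of the T cell list and Atoh1 of the Merkel cell list had 0 counts in both knockout libraries. The whole Merkel cell list of 7 genes summed to 45.6 and 41.6 CPM in controls and 51.7 and 46.2 CPM in knockouts. Of these genes 2 rose, 3 fell and 2 did not pass. In both knockout libraries the fibroblast and muscle sums lay above both keratinocyte sums, so the markers do not bear out the epidermis label there. In both control libraries the fibroblast and muscle sums also lay above the basal keratinocyte sums, but under the suprabasal sums. Sums over different genes do not measure amounts of cells. In these bulk samples, fewer cells of a type and less RNA per cell cannot be told apart.

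**Figure D1:**
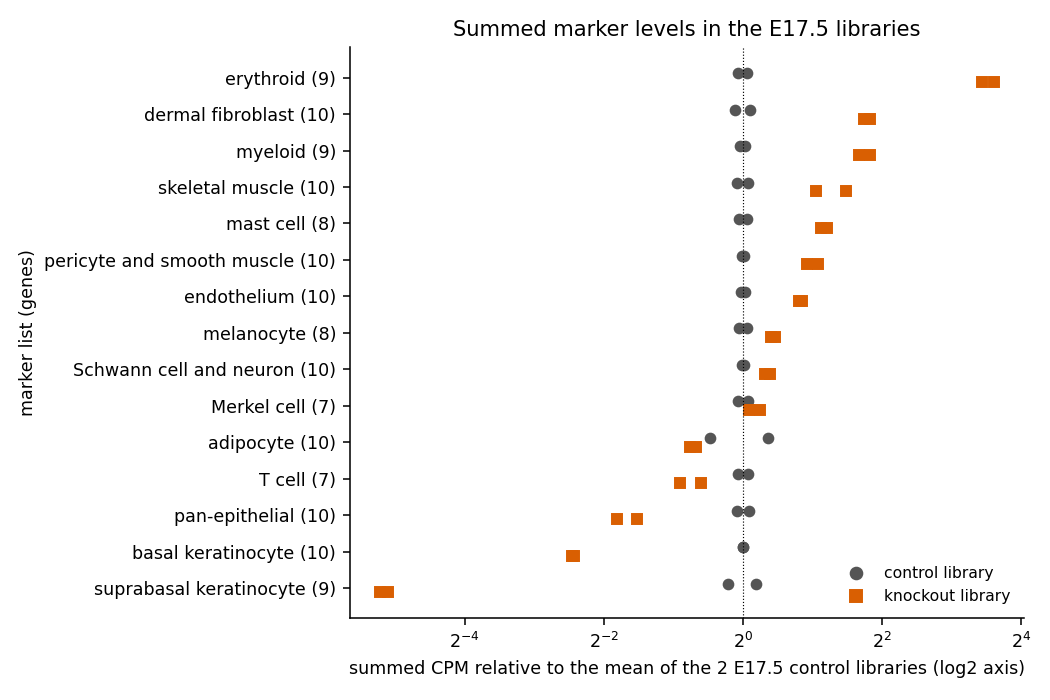
Summed CPM of 15 marker lists in each E17.5 library, divided by the mean of the 2 control libraries (log2 axis); circles are control libraries and squares knockout libraries. Suprabasal and basal keratinocyte sums lie far to the left in both knockout libraries, and erythroid, fibroblast, myeloid and muscle sums to the right.

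Several subunit genes that fell have a close relative that did not. These pairs were picked after their values were seen and illustrate single genes, not a tested pattern. The first belong to the vacuolar proton pump (V-ATPase), which acidifies lysosomes and, in specialised epithelial cells, the outside of the cell. Atp6v1b1, the form of the B subunit in acid-secreting epithelia, was at 28.8 and 30.3 CPM in controls and at 0.256 and 0.180 CPM in knockouts (log2 fold change -7.06 ± 0.28, adjusted p = 5.78e-09). Its close relative Atp6v1b2, used in most cells, was at 119 and 107 against 107 and 104 CPM (-0.10 ± 0.09, adjusted p = 0.41). Atp6v1b1 was low in both knockout libraries, while the levels of Atp6v1b2 overlapped between the genotypes. The same held for the C subunit: Atp6v1c2 was at 37.5 and 40.3 CPM in controls and 2.88 and 3.02 CPM in knockouts (-3.72 ± 0.15), and Atp6v1c1 was at 38.6 and 40.6 against 39.7 and 41.7 CPM (0.04 ± 0.11, adjusted p = 0.79). For the membrane a subunit, the epithelial Atp6v0a4 fell from 13.3 and 11.6 to 1.28 and 0.934 CPM (-3.49 ± 0.23). Tcirg1, the form of osteoclasts and immune cells, rose from 27.2 and 33.2 to 50.02 and 51.39 CPM (0.75 ± 0.12), and the widely used Atp6v0a1 rose too (0.48 ± 0.10), a call lost with library totals (0.26, adjusted p = 0.056). With that scaling Atp6v1b2 passed as fallen (-0.31, adjusted p = 0.018), and at E15.5 it fell (-0.67 ± 0.09). Of 23 V-ATPase genes tested, 6 rose and 4 fell (median log2 fold change -0.06, against -0.02 over all genes). With library totals these counts were 2 and 11, and 2 rose without control replicate 1 or without knockout replicate 1.

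Pairs from other complexes were chosen in the same way. Polr3g, the RNA polymerase III subunit of undifferentiated and growing cells, was at 69.6 and 53.2 CPM in controls and 5.29 and 4.74 CPM in knockouts (-3.61 ± 0.17, adjusted p = 2.16e-08). Its alternative Polr3gl was at 15.04 and 15.44 against 17.31 and 16.21 CPM (0.14 ± 0.14, adjusted p = 0.43). In the tight junction, the scaffold gene Tjp3 fell from 40.5 and 33.1 to 2.37 and 1.51 CPM (-4.24 ± 0.20), and Tjp1 was at 182 and 140 against 156 and 147 CPM (-0.08 ± 0.13, adjusted p = 0.60). The giant cadherins Fat2 and Fat4 moved in opposite directions. Fat2, of squamous epithelia, fell from 61.7 and 51.4 to 1.53 and 1.33 CPM (-5.30 ± 0.16), and Fat4, a receptor of mesenchymal cells, rose from 58.4 and 62.3 to 281 and 304 CPM (2.28 ± 0.10). Laminins, the cross-shaped trimers of basement membranes, had members that moved each way. Lamb3 and Lama3, chains of a laminin that anchors keratinocytes, fell: Lamb3 from 79.7 and 82.1 to 7.96 and 6.90 CPM (-3.44 ± 0.12), and Lama3 fell by 2.91 on the log2 scale. Lama4 (1.27 ± 0.11) and Lamb1 (0.87 ± 0.12), chains of vessel and mesenchymal laminins, rose, as did the linker nidogen gene Nid1 (1.08 ± 0.14). Of 13 laminin and nidogen genes, 7 rose and 5 fell, with Lamc3 the lowest (-5.50 ± 0.27).

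**Figure D2:**
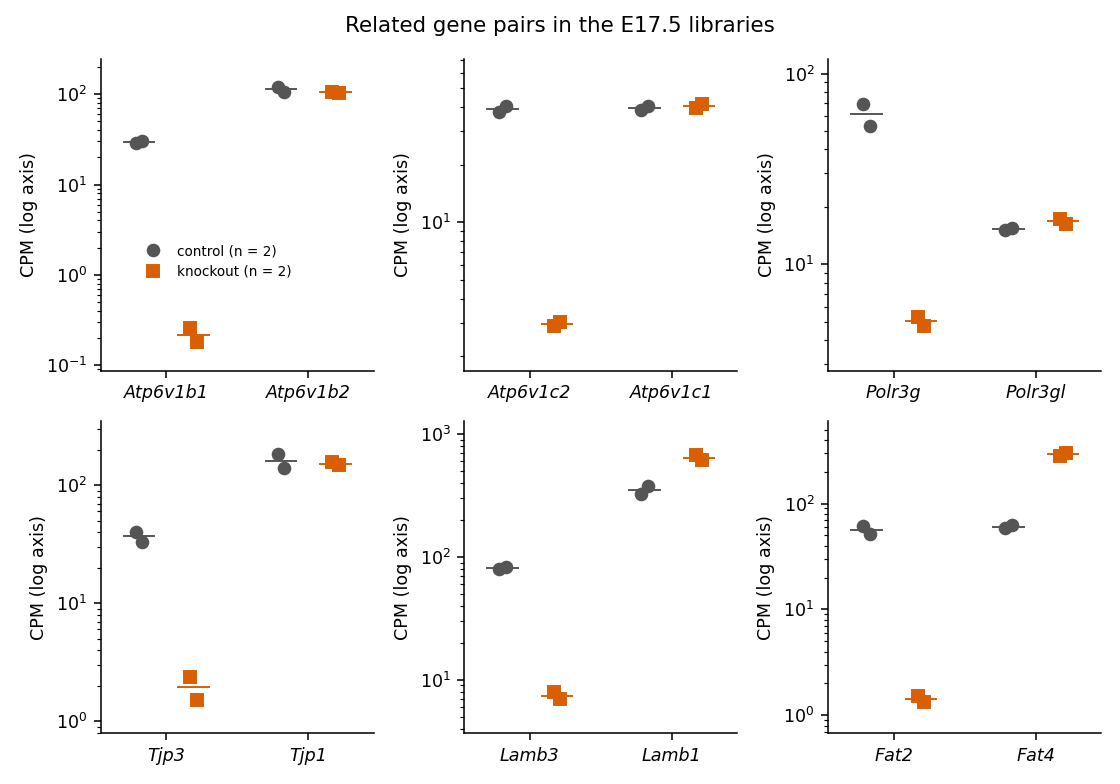
Levels of 6 pairs of related genes in the 4 E17.5 libraries, in CPM on log axes; points are libraries (circles control, squares knockout) and short lines the means of 2 libraries. In each pair the gene on the left was lower in both knockout libraries, while the gene on the right overlapped, lay slightly higher (Polr3gl) or was higher (Lamb1, Fat4).

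Among genes of energy use, the muscle forms rose. Pygm, the muscle glycogen phosphorylase, was at 332 and 259 CPM in controls and 900 and 672 CPM in knockouts (1.41 ± 0.18, adjusted p = 5.86e-05). The muscle phosphofructokinase gene Pfkm rose from 134 and 126 to 326 and 268 CPM (1.19 ± 0.12), and the muscle carnitine palmitoyltransferase gene Cpt1b, which admits fatty acids to mitochondria, from 30.4 and 28.4 to 82.5 and 62.5 CPM (1.30 ± 0.15). In each of them knockout replicate 1 was the highest library, as it was for the summed muscle markers (43830 CPM against 32350 CPM in replicate 2); their part in the result was not tested. Outside muscle isoforms, the glucose transporter gene Slc2a3 rose from 4.17 and 2.86 to 20.2 and 24.9 CPM (2.69 ± 0.32), and the leukocyte hexokinase gene Hk3 rose (1.92 ± 0.28). Slc2a1, the main glucose transporter of keratinocytes, fell from 142 and 134 to 61.6 and 66.4 CPM (-1.11 ± 0.13), and the aldolase gene Aldoc fell (-2.89 ± 0.25). Of 25 glycolysis genes 14 rose and 5 fell (median 0.33), and of 16 glycogen genes 10 rose and 2 fell (median 0.60); 9 glycolysis genes rose with library totals, and 3 fell without knockout replicate 2. Glycogen genes that fell numbered 1 in DESeq2 and without either knockout replicate.

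Fatty acids are oxidised in mitochondria and in peroxisomes. Of 19 mitochondrial genes 9 rose and 4 fell, and of 13 peroxisomal genes 2 rose and 6 fell; over both, 11 rose against 6 with library totals and 7 without knockout replicate 1. Of the peroxisomal transporter genes, Abcd3 fell from 103 and 90.5 to 45.3 and 45.5 CPM (-1.09 ± 0.10) and Abcd2 fell (-0.79 ± 0.14). The sterol carrier gene Scp2 fell as well, from 37.4 and 46.7 to 21.9 and 20.2 CPM (adjusted p = 5.78e-05). Of 22 hypoxia genes 9 rose and 4 fell, with 8 fallen with library totals and 2 without control replicate 1 or knockout replicate 2. Hif3a, an inhibitory member of the hypoxia-inducible factor family, rose from 70.3 and 65.5 to 215 and 213 CPM (1.66 ± 0.10), and the collagen prolyl hydroxylase gene P4ha2 rose (1.62 ± 0.11). Car12, a carbonic anhydrase that is a target of the pathway, fell from 96.0 and 81.1 to 2.52 and 2.16 CPM (-5.24 ± 0.19). Of 14 target genes 6 rose and 2 fell.

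Detoxifying enzymes fell in part. Glutathione transferases, which attach glutathione to reactive compounds, had 1 risen and 9 fallen among 21 tested. Gsta2 was at 13.4 and 12.1 CPM in controls and 0.511 and 0.647 CPM in knockouts (-4.45 ± 0.35), Mgst2 fell by 4.25 and Gsta1 by 3.95 on the log2 scale. Gclc, the catalytic subunit of glutathione synthesis, fell (-1.41 ± 0.11), while the extracellular glutathione peroxidase gene Gpx3 rose from 16.4 and 20.8 to 72.1 and 92.9 CPM (2.15 ± 0.15). Nfe2l2, the transcription factor that drives many of these enzymes, rose slightly (0.43 ± 0.10), and did not pass with library totals (0.22, adjusted p = 0.12). Over all 52 antioxidant genes 13 rose and 18 fell; 4 rose with library totals, 8 without knockout replicate 1 and 7 without knockout replicate 2. Of 31 cytochrome P450 genes, which oxidise lipids, steroids and foreign compounds, 6 rose and 15 fell, 13 of those at least 2-fold, as did 10.9% of all genes tested. Cyp2b19, a keratinocyte arachidonic acid epoxygenase, fell from 320 and 220 to 4.05 and 3.49 CPM (-6.16 ± 0.23). Cyp7b1, an oxysterol hydroxylase, rose from 3.41 and 2.83 to 10.77 and 14.02 CPM (1.99 ± 0.21).

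Enzymes of eicosanoids, the lipid mediators made from arachidonic acid, moved in both directions. Ptgs2, the inducible cyclooxygenase, was at 0.471 and 0.578 CPM in controls and 11.4 and 8.55 CPM in knockouts (4.23 ± 0.35, adjusted p = 1.91e-06). The leukotriene enzyme gene Alox5 rose from 3.62 and 2.73 to 25.4 and 19.1 CPM (2.81 ± 0.29) and its partner Alox5ap from 7.54 and 8.35 to 52.2 and 50.2 CPM (2.69 ± 0.16). All 3 genes were higher in both knockout libraries. The epidermal genes went the other way: the phospholipase gene Pla2g4f fell from 112 and 92.2 to 3.103 and 2.480 CPM (-5.19 ± 0.23) and the lipoxygenase gene Alox12 from 44.0 and 35.4 to 1.83 and 1.40 CPM (-4.62 ± 0.21). In all, 13 of 38 eicosanoid genes rose and 13 fell (68.4% called, against 53.5% of all genes). Myeloid markers, whose cells express Alox5 and Alox5ap, summed to 342 to 360 CPM in controls and 1115 to 1240 CPM in knockouts. The 8 mast cell markers summed to 2226 to 2401 CPM in controls and 5049 to 5365 CPM in knockouts, and all 8 rose. The part of these cells in the result was not tested.

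In the proteasome, which degrades ubiquitin-tagged proteins, most constitutive subunit genes fell by small amounts. Of 14 core subunit genes 10 fell, and of 18 regulatory particle genes 14 fell (medians -0.32 and -0.35); none rose. Examples are Psmc5, an ATPase subunit of the regulatory particle (114 and 130 against 76.2 and 83.4 CPM; -0.61 ± 0.10), and Psmb7, a catalytic subunit of the core particle (122 and 135 against 94.9 and 99.7 CPM; -0.40 ± 0.10). The catalytic subunits of the immunoproteasome, which replace their constitutive relatives after interferon and in immune cells, rose, while the 2 activator genes of the list did not pass. Psmb9 rose from 1.78 and 1.38 to 5.66 and 7.22 CPM (2.03 ± 0.43), Psmb8 from 5.18 and 9.09 to 19.0 and 22.1 CPM (1.52 ± 0.24) and Psmb10 from 9.82 and 11.3 to 25.2 and 25.1 CPM (1.25 ± 0.13). Over all 37 genes 3 rose and 24 fell; 12 fell without control replicate 2 and 8 without knockout replicate 1, and 28 with library totals. Myeloid sums (1115 to 1240 CPM in knockouts, 342 to 360 CPM in controls) moved with the immunoproteasome, and their part was not tested.

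**Figure D3:**
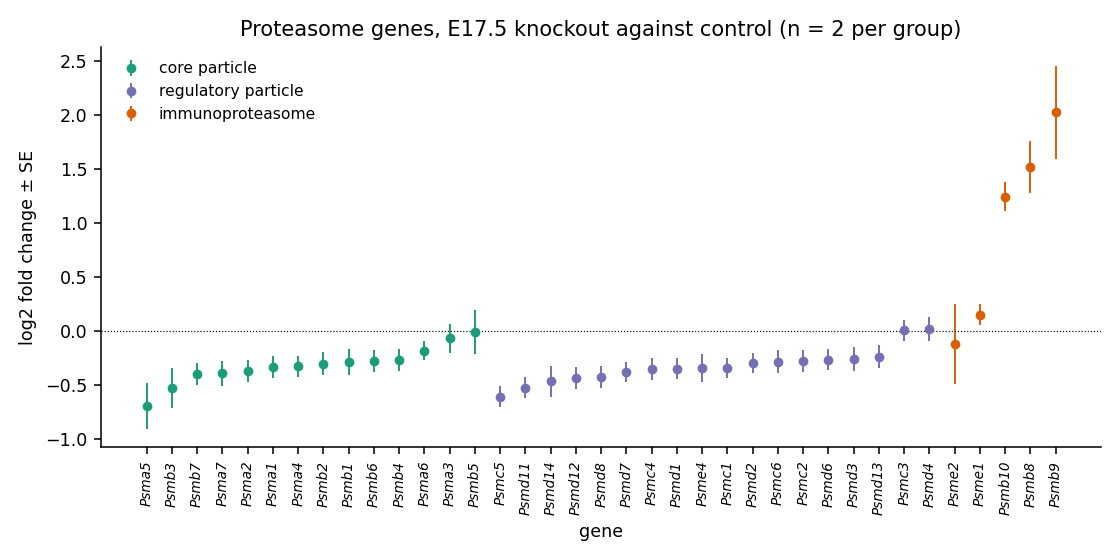
Log2 fold change of each of 37 proteasome genes at E17.5 with its SE, knockout against control (2 libraries each), ordered within the core particle, the regulatory particle and the immunoproteasome with its activator. Most core and regulatory subunits lie slightly under 0, while Psmb10, Psmb8 and Psmb9 lie between 1.25 and 2.03.

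To show the promoters of a risen and a fallen family, 7 short motifs were searched on both strands in RefSeq promoters (250 bases before to 50 bases after the gene start, GRCm38.p6) of the glutathione transferase, immunoproteasome, and Dlx and Msx genes. The 2 promoters printed here were picked because they hold a match, capitalised. Psmb8 (chr17:34197945-34198244, plus strand) holds the STAT element TTCNNNGAA, and Msx2 (chr13:53472731-53473030, minus strand) the homeodomain core TAATTA.
Psmb8: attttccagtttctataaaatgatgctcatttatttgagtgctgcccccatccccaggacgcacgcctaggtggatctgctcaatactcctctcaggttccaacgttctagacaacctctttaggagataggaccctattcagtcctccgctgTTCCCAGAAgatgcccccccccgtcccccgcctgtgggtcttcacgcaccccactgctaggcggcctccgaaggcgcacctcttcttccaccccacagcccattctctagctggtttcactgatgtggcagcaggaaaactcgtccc
Msx2: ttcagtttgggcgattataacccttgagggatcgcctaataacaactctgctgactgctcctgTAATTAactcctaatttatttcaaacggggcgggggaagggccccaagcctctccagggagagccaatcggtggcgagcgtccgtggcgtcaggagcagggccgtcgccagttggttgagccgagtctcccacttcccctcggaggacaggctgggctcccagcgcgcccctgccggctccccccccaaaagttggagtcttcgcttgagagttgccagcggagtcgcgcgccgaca
TTCNNNGAA occurred in 8.3% of all 32851 promoters and in 1 of 5 immunoproteasome genes with a promoter, and TAATTA in 5.29% of promoters and 1 of 5 Dlx and Msx genes. A match describes the sequence only.

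Protein folding, tRNA charging and degradation in lysosomes gave 3 different pictures. Of 29 unfolded protein response genes 14 rose and 1 fell (median 0.28); with library totals 8 rose. The collagen-related stress transducer gene Creb3l2 rose from 35.9 and 30.0 to 79.3 and 84.0 CPM (1.31 ± 0.12), the disulfide isomerase gene Pdia5 by 1.23 ± 0.13, and Ddit3, an effector of unresolved stress, was at 10.4 and 12.4 against 12.4 and 15.4 CPM (0.28 ± 0.16, adjusted p = 0.16). Of 22 cytosolic tRNA synthetase genes 0 rose and 10 fell (median -0.25), led by Qars (157 and 154 against 93.0 and 100 CPM; -0.69 ± 0.09) and Rars (-0.63 ± 0.10); 18 fell with library totals and 5 without knockout replicate 1. The share of tRNA synthetase genes called, 45.5%, was under the 53.5% of all genes tested, and their small median depends on the scaling (-0.46 with library totals). Of 27 lysosomal enzyme and membrane genes 16 rose, 1 fell and 10 did not pass, and of 22 autophagy genes 6 rose and 7 fell. The macrophage protease gene Ctss rose from 16.2 and 17.1 to 101 and 87.4 CPM (2.50 ± 0.12) and the leukocyte membrane gene Laptm5 from 67.1 and 65.1 to 205 and 194 CPM (1.59 ± 0.10). The sphingomyelinase gene Smpd1, needed for barrier ceramides, fell from 151 and 124 to 52.7 and 50.7 CPM (-1.41 ± 0.11). Myeloid sums were 1115 to 1240 CPM in knockouts and 342 to 360 CPM in controls, and their part was not tested. Fallen members of the lysosome and autophagy list numbered 8 in all, 14 with library totals and 5 without knockout replicate 2.

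In DNA repair, all 19 calls among 24 homologous recombination and Fanconi genes were falls (median -0.58), 11 without knockout replicate 1. Bard1 fell from 11.9 and 13.9 to 5.66 and 6.36 CPM (-1.10 ± 0.17), and its partner Brca1 from 33.3 and 31.6 to 16.1 and 19.2 CPM (-0.87 ± 0.13). Of 14 RNA polymerase I genes 11 fell and 0 rose (median -0.55), with Cd3eap at -0.99 ± 0.12 and Polr1b at -0.73 ± 0.13, whereas 4 of 21 polymerase III genes fell; over both, 15 fell, and 24 with library totals. The methylation maintenance genes Uhrf1 (134 and 143 against 62.4 and 63.8 CPM; -1.14 ± 0.09) and Dnmt1 (-0.52 ± 0.10) fell, among 3 risen and 7 fallen of 15 DNA methylation genes (1 risen without knockout replicate 1). Of 27 Polycomb genes 4 rose and 10 fell, and 2 rose with library totals or without control replicate 2 or knockout replicate 2. Ezh2, the histone methyltransferase of dividing cells, fell from 67.8 and 70.5 to 32.2 and 37.9 CPM (-0.98 ± 0.11), while its relative Ezh1 was at 40.7 and 37.2 against 49.3 and 40.4 CPM (0.20 ± 0.13, adjusted p = 0.21). Cbx2 fell most in the list (-1.94 ± 0.14). Of 18 deacetylase genes 4 rose and 6 fell. Hdac1 (55.2 and 47.4 against 26.8 and 25.9 CPM; -0.96 ± 0.13) and Hdac2 (-0.61 ± 0.11), the pair of nuclear corepressor complexes, fell, and the class IIa genes Hdac7 (0.85 ± 0.11) and Hdac9 (1.06 ± 0.17) rose.

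Wnt signalling, which induces hair placodes, had the lowest median of the signalling lists: 31 of 56 genes fell, 25 of those at least 2-fold, and 13 rose (median -0.76). Over all genes tested 26.7% fell, and 10.9% fell at least 2-fold. The roles differed: of 15 receptor genes 5 rose and 6 fell (median 0.22). Of 14 secreted antagonist genes 4 rose and 6 fell (median 0.03). Of 16 ligand genes 10 fell and 3 rose. Wnt3 fell from 19.9 and 14.7 to 0.475 and 0.898 CPM (-4.64 ± 0.27), while the mesenchymal Wnt2 rose from 2.21 and 2.09 to 22.4 and 15.7 CPM (3.15 ± 0.35) and Wnt9a rose (1.82 ± 0.20). The secreted antagonist gene Dkk1 fell (-4.28 ± 0.31), and Kremen2, its co-receptor, fell from 44.98 and 42.25 to 0.803 and 0.934 CPM (-5.64 ± 0.19). Among feedback targets and nuclear factors 9 of 11 fell and 1 rose: Lef1 from 61.1 and 65.5 to 7.23 and 5.39 CPM (-3.33 ± 0.15), Rnf43 (-4.24 ± 0.16) and Axin2 (-1.19 ± 0.10). Basal and suprabasal keratinocyte markers fell in the same libraries (18 of 19), and their part was not tested.

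Of 34 TGF-beta and activin genes 15 rose and 9 fell. Ltbp2, which binds matrix microfibrils, rose from 29.8 and 37.5 to 120 and 134 CPM (1.92 ± 0.13), and the response gene Thbs1 (1.58 ± 0.16) rose. The activin receptor gene Acvr1b fell from 68.7 and 60.0 to 23.0 and 19.8 CPM (-1.59 ± 0.12), and the co-receptor gene Cd109 fell (-1.46 ± 0.13). In the Hippo pathway, 12 of 29 genes rose (7 with library totals) and 7 fell. The effector gene Yap1 fell from 237 and 229 to 142 and 142 CPM (-0.71 ± 0.09), and Wwc1, which scaffolds the upstream kinases, fell (-2.12 ± 0.13). The target gene Ccn1 was at 25.7 and 28.8 CPM in controls and 87.9 and 156 CPM in knockouts (2.16 ± 0.25). Of 68 axon guidance genes, whose products also position skin nerves and vessels, 24 rose and 24 fell (70.6% called, against 53.5% of all genes). Of 8 ephrin genes 6 fell and 0 rose. The receptor genes Ephb6 (117 and 105 against 11.5 and 12.3 CPM; -3.22 ± 0.11) and Epha1 (-3.18 ± 0.14) fell, and the semaphorin gene Sema3c rose (1.75 ± 0.17).

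Of 44 JAK-STAT genes, which carry cytokine signals, 26 rose, 6 fell and 12 did not pass (median 0.45). Il22ra1, the receptor chain by which keratinocytes sense interleukin 22, fell from 45.9 and 36.0 to 1.17 and 1.15 CPM (-5.14 ± 0.21), and Il20rb fell from 97.3 and 72.7 to 9.97 and 7.04 CPM (-3.32 ± 0.19). Il4ra rose from 28.2 and 27.3 to 97.8 and 101 CPM (1.84 ± 0.10), as did the receptor gene Il10ra (1.70 ± 0.20), the kinase gene Jak3 (1.499 ± 0.152) and the interferon response factor gene Stat2 (1.22 ± 0.13). Of 33 innate sensor genes 23 rose, 4 fell and 6 did not pass (median 1.08), and 17 of 20 Toll-like receptor and adaptor genes rose. Tlr6 was at 0.761 and 1.22 CPM in controls and 6.72 and 6.11 CPM in knockouts (2.68 ± 0.29), and Tlr13 at 4.06 and 3.53 against 22.3 and 20.1 CPM (2.48 ± 0.18). The inflammasome sensor gene Nlrp10 of the epidermis fell from 91.8 and 59.3 to 4.45 and 4.17 CPM (-4.13 ± 0.22) and the adaptor gene Pycard fell (-1.34 ± 0.11). Of 31 purinergic genes 15 rose and 5 fell, all 15 risen genes at least 2-fold (13.4% of all genes tested rose as much), with P2ry6 at 7.79 and 9.12 against 27.7 and 24.3 CPM (1.62 ± 0.15). Myeloid markers moved with these lists (8 of 9 risen; 342 to 360 CPM in controls and 1115 to 1240 CPM in knockouts), whereas the summed T cell markers were lower in knockouts (6.90 to 8.54 against 12.3 to 13.6 CPM); their part was not tested. Of 6 T cell markers tested 2 fell, 1 rose and 3 did not pass, and Cd3d had 0 counts in both knockout libraries.

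Antimicrobial genes moved in both directions, with 11 of 18 risen and 5 fallen (median 1.58; 7 risen with a stricter filter). S100a9, a neutrophil and stressed keratinocyte alarmin, rose from 2.21 and 3.37 to 19.3 and 39.9 CPM (3.40 ± 0.36; 2.76 without knockout replicate 2). S100a7a rose from 0.616 and 0.706 to 5.15 and 8.59 CPM (3.36 ± 0.44), and Wfdc21 fell from 16.1 and 19.1 to 0.365 and 0.431 CPM (-5.45 ± 0.35). In the Ly6 family of small surface proteins 8 of 25 genes rose and 12 fell. Psca had 3 counts in controls and 2004 in knockouts (both libraries of each together), and the ratio was 711 with a counting interval of 243 to 3449 (95%). Ly6h rose from 1.34 and 2.02 to 16.7 and 25.8 CPM (3.65 ± 0.33), and Ly6g6c, a gene of the differentiating epidermis, fell from 400 and 321 to 18.1 and 28.6 CPM (-3.95 ± 0.25). Of 18 mucin, uroplakin and mucosal genes with enough counts 9 rose and 1 fell: the mesothelin gene Msln was at 0.399 and 0.225 CPM in controls and 20.7 and 26.6 CPM in knockouts (6.25 ± 0.39), and Muc15 fell (-4.44 ± 0.24).

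Transcription factor families also had members that moved each way. All 7 Dlx and Msx homeobox genes with enough counts fell, with log2 fold changes of -5.44 to -1.76. Dlx3, a factor of the granular layer and hair matrix, fell from 125 and 136 to 2.99 and 3.02 CPM (-5.44 ± 0.14), and Msx2 from 19.7 and 21.8 to 0.949 and 1.15 CPM (-4.30 ± 0.22). Irx4 fell from 62.6 and 73.3 to 0.803 and 0.683 CPM (-6.51 ± 0.22), while Six4, a factor of muscle precursors, rose (1.98 ± 0.26). Over the 40 homeobox genes outside the Hox clusters 13 rose and 15 fell. The share called was 70% here and in the Gata and Klf list, against 53.5% of all genes. Of 16 Sox genes 10 fell and 3 rose (median -0.67): Sox21 fell from 38.2 and 34.6 to 0.365 and 0.791 CPM (-5.96 ± 0.26; -6.64 without knockout replicate 2), and the follicle stem cell factor gene Sox9 fell from 85.0 and 86.7 to 23.4 and 28.4 CPM (-1.73 ± 0.12). Gata3 fell from 146 and 135 to 2.67 and 3.23 CPM (-5.57 ± 0.22), while the endothelial Klf2 rose from 13.1 and 15.9 to 44.9 and 43.6 CPM (1.61 ± 0.17), and Klf4 and Klf5, of the suprabasal and basal layers, fell (-1.40 ± 0.13 and -1.33 ± 0.10). Of 20 Gata and Klf genes 8 rose and 6 fell, 3 without knockout replicate 1. Among 38 nuclear receptor genes 13 rose and 9 fell (14 with library totals). The vitamin D receptor gene Vdr fell from 56.1 and 62.2 to 11.7 and 11.8 CPM (-2.33 ± 0.12), as did Rora (-2.33 ± 0.21) and the thyroid hormone receptor gene Thrb (-2.28 ± 0.19), and the retinoid receptors moved apart, with Rxrg risen (1.81 ± 0.14) and Rxra fallen (-0.99 ± 0.11).

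Channel and carrier genes moved in both directions. Aqp3, the water and glycerol channel of keratinocytes, fell from 101 and 96.5 to 2.15 and 1.65 CPM (-5.70 ± 0.16), and the vessel channel gene Aqp1 rose from 147 and 172 to 253 and 280 CPM (0.74 ± 0.13). Fxyd3, a regulator of the sodium pump, fell from 77.4 and 80.6 to 2.15 and 2.41 CPM (-5.11 ± 0.25), and Fxyd5 rose from 44.6 and 33.6 to 118 and 119 CPM (1.601 ± 0.205). In the sodium pump list 6 of 13 rose and 1 fell (3 risen without knockout replicate 1). The calcium store channel genes Ryr1 (171 and 123 against 553 and 376 CPM; 1.66 ± 0.22) and Ryr3 (2.14 ± 0.15) rose, while the Golgi calcium pump gene Atp2c2 fell (-2.38 ± 0.18); 13 of 25 calcium genes rose and 4 fell (8 with library totals). Muscle markers summed to 32350 to 43830 CPM in knockouts and 14790 to 16510 CPM in controls, and their part was not tested. Zinc carriers fell at the importer genes Slc39a2 (37.4 and 38.2 against 1.86 and 0.898 CPM; -4.77 ± 0.41, or -5.41 without knockout replicate 1) and Slc39a8 (-3.07 ± 0.12) and at the exporter gene Slc30a1 (-1.77 ± 0.11), among 8 risen and 7 fallen of 26 zinc genes (4 risen without knockout replicate 1, 5 in DESeq2). The amino acid exchanger gene Slc7a8 rose from 39.2 and 35.7 to 116 and 116 CPM (1.63 ± 0.10) and the arginine carrier gene Slc7a1 fell from 122 and 101 to 50.5 and 58.0 CPM (-1.04 ± 0.12). Of 290 solute carriers 92 rose and 65 fell, and 64 and 83 with library totals. Of 68 potassium channel genes 27 rose and 13 fell (7 with a stricter filter). The shares called, 54.1% of solute carriers and 58.8% of potassium channels, were near the 53.5% of all genes tested.

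Of 10 small leucine-rich proteoglycan genes, which coat collagen fibrils, 9 rose and 0 fell, and over all 35 proteoglycan and hyaluronan genes 22 rose and 9 fell (median 0.84). Hyaluronan synthases moved apart: Has3, of the epidermis, fell from 82.8 and 67.3 to 3.54 and 2.98 CPM (-4.52 ± 0.18), while Has1 rose (1.98 ± 0.34) and Has2 rose from 17.6 and 16.8 to 31.3 and 34.4 CPM (0.93 ± 0.12). The syndecan gene Sdc1 fell from 200 and 187 to 57.0 and 62.2 CPM (-1.70 ± 0.10), and the glypican gene Gpc6 rose from 35.6 and 36.1 to 110 and 103 CPM (1.57 ± 0.10). Of 24 ADAMTS genes, secreted metalloproteases and their relatives, 16 rose and 4 fell (median 1.04), with the procollagen peptidase gene Adamts2 at 57.6 and 69.0 against 254 and 273 CPM (2.06 ± 0.14). Of 32 actomyosin genes 19 rose, 2 fell and 11 did not pass (13 and 6 with library totals). Flnc, the muscle filamin, rose from 262 and 224 to 992 and 782 CPM (1.87 ± 0.16) and the focal adhesion gene Zyx from 102 and 127 to 297 and 298 CPM (1.38 ± 0.12). Tight junction and polarity genes went the other way, with 19 of 35 fallen and 7 risen (median -0.53), such as Cxadr (90.7 and 81.3 against 6.32 and 5.32 CPM; -3.88 ± 0.17) and the cingulin gene Cgn (-2.44 ± 0.16), while the endothelial Jam2 (0.88 ± 0.14) and Jam3 (0.95 ± 0.11) rose. Fibroblast markers summed to 93840 to 99570 CPM in knockouts and 26170 to 30270 CPM in controls and muscle markers to 32350 to 43830 against 14790 to 16510 CPM, and their part was not tested.

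**Figure D4:**
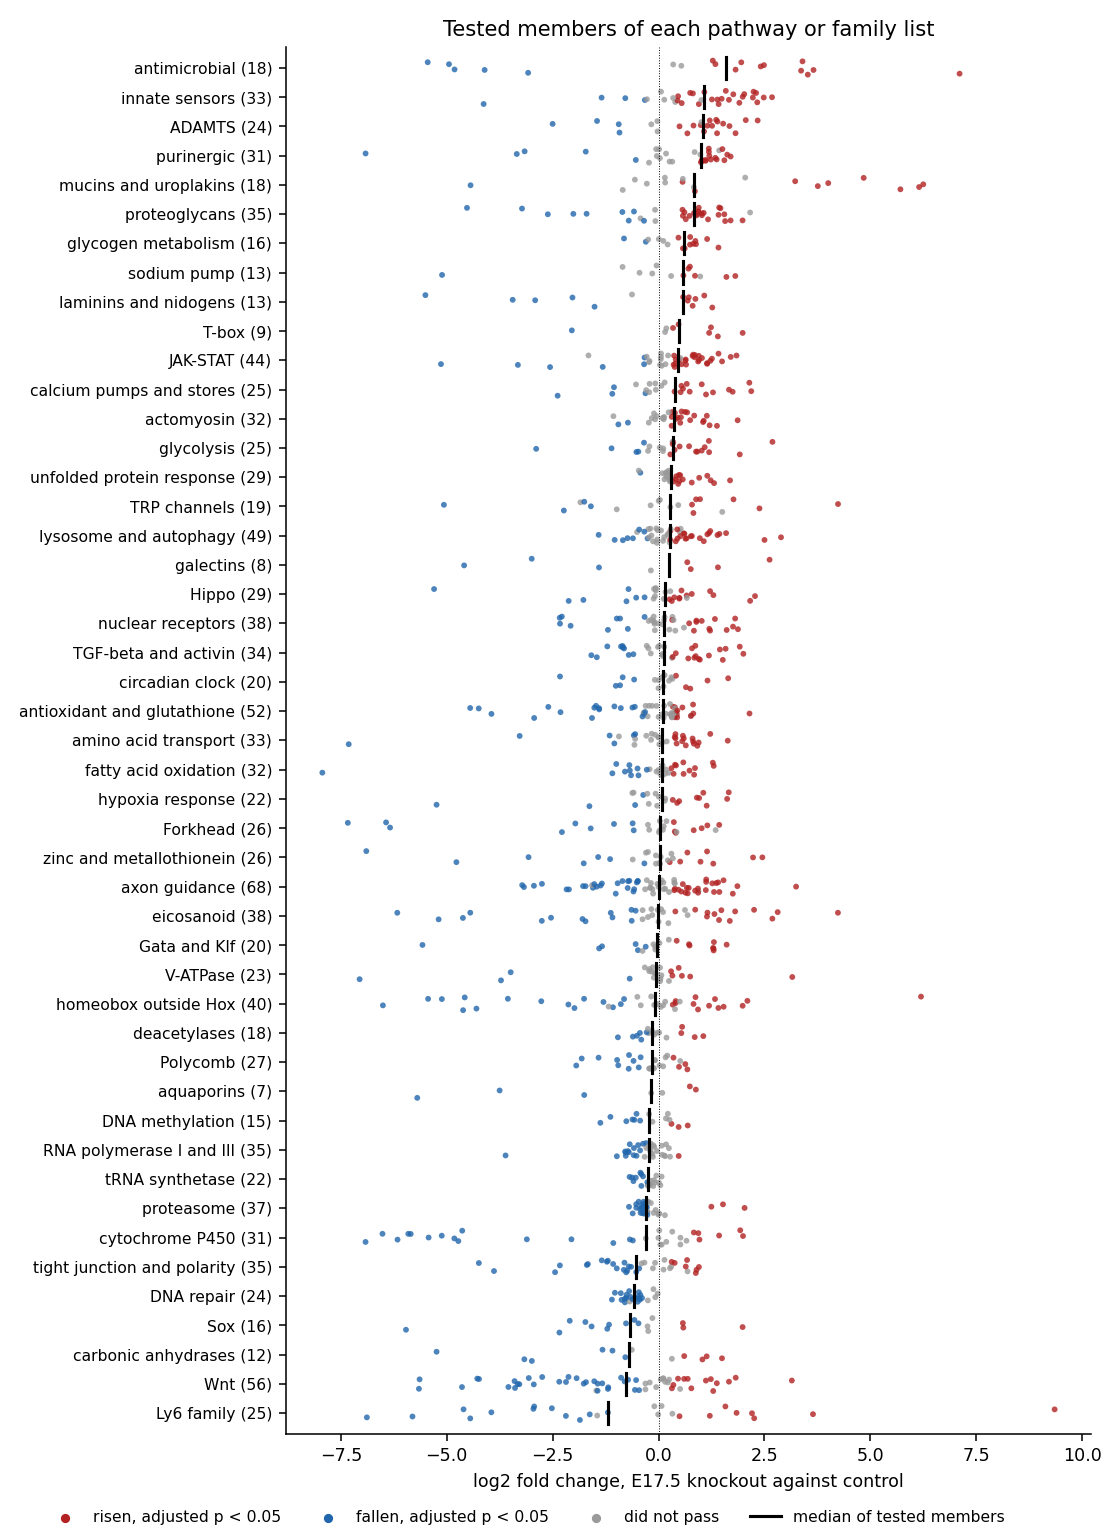
Log2 fold change at E17.5 of the tested members of 47 pathway and family lists (number of tested members in brackets), ordered by median; each point is a gene, red where it rose, blue where it fell and grey where it did not pass. Medians run from the Ly6 family, Wnt, carbonic anhydrase and Sox lists at the bottom to the ADAMTS, innate sensor and antimicrobial lists at the top.

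Abundant genes with the largest changes are given next, limited to genes whose groups did not overlap and leaving out keratin, envelope, Serpinb, Skint and hemoglobin genes and the keratinocyte markers. The heme synthesis gene Alas2, of red cell precursors, rose from 29.1 and 26.8 to 370 and 315 CPM (3.62 ± 0.29) beside an erythroid marker sum of 13260 to 14930 CPM in knockouts and 1173 to 1281 CPM in controls. Tnc, the tenascin of wounds and condensing mesenchyme, rose from 140 and 137 to 1563.5 and 1629.4 CPM (3.53 ± 0.16), the acute phase inhibitor gene Serpina3n from 24.5 and 20.9 to 172 and 204 CPM (3.05 ± 0.14) and Igfbp5, a binding protein of insulin-like growth factors, from 366 and 314 to 1787.5 and 1784.8 CPM (2.40 ± 0.15). Both knockout libraries were above both control libraries for each, as the choice of these genes required. The matrix genes Fndc1 (2.33 ± 0.16), Mfap5 (2.14 ± 0.28) and Tnxb (2.12 ± 0.26), the galectin-binding gene Lgals3bp (2.62 ± 0.14) and the imprinted gene Peg10 (2.10 ± 0.15) followed. Lgals7, the galectin of stratified epithelia, fell from 2133.6 and 2104.2 to 86.3 and 89.6 CPM (-4.59 ± 0.26), and Perp, a desmosome gene, from 1592.6 and 1458.2 to 88.7 and 101 CPM (-4.01 ± 0.15). The cystatin-like genes Stfa3 (-5.39 ± 0.17) and Cstdc5 (-4.67 ± 0.18), the caspase gene Casp14 (-4.92 ± 0.19), the desmocollin gene Dsc3 (-4.88 ± 0.18), Calm4 (-4.05 ± 0.26) and the plakin gene Evpl (-3.99 ± 0.14) fell as well. Counts of the stefin and cystatin copies cannot be assigned to a copy with certainty.

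The effect of the knockout at E17.5 differed from that at E15.5, tested as the difference between the effects, in 711 genes (4.35% of those tested): it was higher for 308 (1.88%) and lower for 403 (2.47%). The higher count was 184 and 130 without E15.5 control replicates 1 and 2, 201 and 122 without E15.5 knockout replicates 1 and 2, 175 without E17.5 control replicate 2 and 137 without E17.5 knockout replicate 1, and the lower count was 258 and 268 without E15.5 control replicates 1 and 2 and 255 without E15.5 knockout replicate 2. Of these, 385 changed in the same direction at both stages with a larger size at E17.5, 64 with a smaller size, 128 passed at E17.5 alone, 90 at E15.5 alone and 44 passed in opposite directions. Aox4, an aldehyde oxidase, fell at E17.5 from 261 and 176 to 2.70 and 1.87 CPM (-6.58 ± 0.24), 4.11 lower than the effect at E15.5 on the log2 scale. Dlx3, Cyp2b19, Tchh, a protein of the hair root sheath, Krt15, Krt23 and Hrnr also fell further against control at E17.5. Cbr2, a carbonyl reductase, fell at E15.5 (-1.08 ± 0.27) and rose at E17.5 from 29.9 and 40.6 to 79.6 and 67.3 CPM (1.06 ± 0.25). The repeat protein gene Sprr2h rose at E17.5 too (1.12 ± 0.27; 1.74 without E17.5 control replicate 1), its difference between stages not passing without E15.5 control replicate 2 (adjusted p = 0.053), and the envelope gene Sprr1b (3.94 ± 0.34) and the simple epithelial and mucosal keratins Krt7 (4.84 ± 0.37) and Krt13 (3.65 ± 0.33) rose at E17.5, each above its effect at E15.5. Itgam, an integrin of myeloid cells, rose from 8.95 and 6.39 to 50.9 and 47.1 CPM (2.68 ± 0.16), 2.11 above its effect at E15.5. The potassium channel gene Kcnj12 (-0.95 ± 0.19) fell less than at E15.5.

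**Figure D5:**
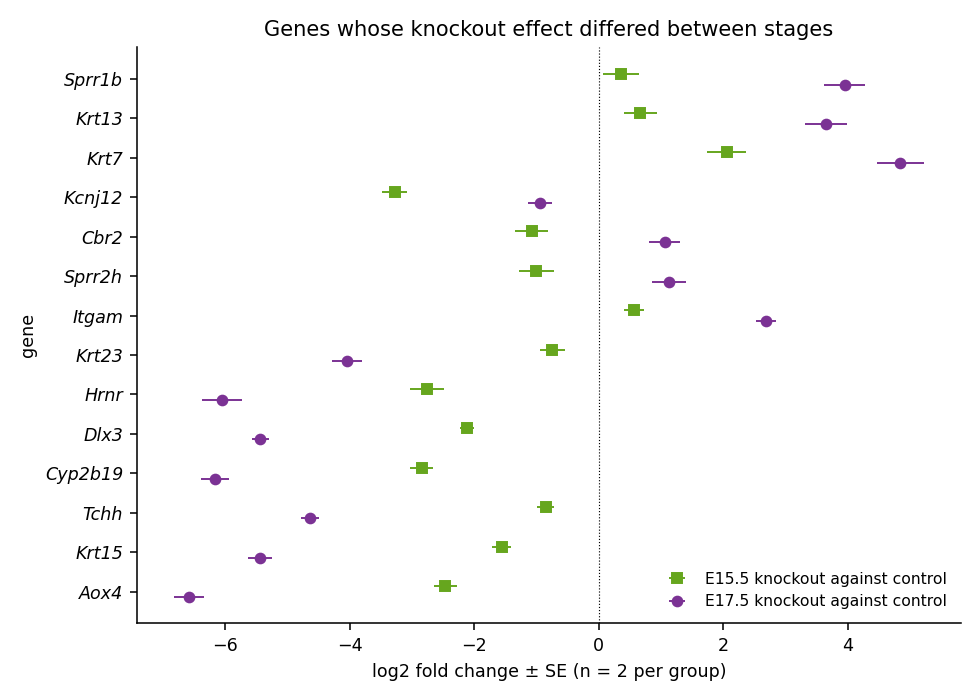
Log2 fold change with SE of 14 of the genes with the largest difference between stages, knockout against control at E15.5 (squares) and at E17.5 (circles), 2 libraries per group. The 7 lower genes fell further at E17.5, Cbr2 and Sprr2h lie on opposite sides of 0 at the 2 stages, and Kcnj12 is nearer to 0 at E17.5.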

How the data were processed

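RNA of epidermis was sequenced by the study's authors, and reads were aligned to mm10 with TopHat2 (version 2) and counted with HOMER, per the submitters' processing notes and the series design text. The authors deposited whole-number counts per RefSeq transcript with no normalization. The HOMER version, strand setting, read length and handling of multiply mapped reads were not given in the sources used here, so antisense or overlapping genes cannot be told apart. Of 30521 transcripts, 29904 were named from RefSeq (GRCm38.p6) and 186 from GENCODE M21; the 431 without a name held 2.08% of counts and were left out. A gene takes the counts of its transcript of highest summed count. The 8 columns of joined tables without header were not used.

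Counts were tested in R 4.3.3 with edgeR 4.0.16 (glmQLFit and glmQLFTest), trimmed mean of M values (TMM) scaling and filterByExpr with 4 groups, 1 mean per group over all 8 libraries. P-values were adjusted by the Benjamini-Hochberg method over every tested gene, and calls made under 0.05. Levels are CPM on TMM-scaled totals. To get the SE, the size of the log2 fold change was divided by the square root of F. The fit was also run on simulated counts in which few genes changed, as many up as down. That run does not check the scaling in these libraries, where 53.5% of genes passed. A stage difference is the E17.5 effect minus the E15.5 effect. Psca counts have an exact binomial interval for counting error only.

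The 47 pathway and family lists, 5 symbol prefix families, 15 marker lists and the rules for named genes were chosen with earlier results of these data known. The rules name Noc2l, up to 3 called members per list and direction with the largest change (mean log2 CPM of at least 1), the first of which are given where fewer appear, the 10 largest rises and falls among abundant genes (mean log2 CPM of at least 6, no overlap, outside keratin, envelope, Serpinb, Skint and hemoglobin genes and keratinocyte markers), and the 8 largest stage differences per direction (mean log2 CPM of at least 4). Related genes of named members and Krt5, Krt14, Gclc, Nfe2l2, Psmb7, Ddit3, Brca1, Polr1b, Dnmt1, Ezh2, Lef1, Rnf43, Axin2, Yap1, Stat2, Rxra, Cd3d and Atoh1 were chosen after their values were seen. Some genes that the rules name are not reported here. Alternatives were DESeq2 1.42.0, limma-voom (limma 3.58.1), other scalings and filters, sums over transcripts, E17.5 libraries alone, a replicate block, and leaving out each library. Replicates differed by more than sampling noise (chi-square per gene 26.7 in controls and 20.9 in knockouts at E17.5).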

Additional observations from a re-analysis of the deposited data

Results flagged for a closer look

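The results here differed between stages: the effect of the knockout at E17.5 minus that at E15.5, in log2 units, passed edgeR's test at an adjusted p under 0.05, with 2 libraries in each of the 4 groups. It was higher at E17.5 for 308 genes and lower for 403, and the values below are those of genes named in the report.

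Genes of the epidermis and its appendages fell against control at both stages and by more at E17.5. In barrier, envelope and hair genes the difference was -4.11 for Aox4, -3.88 for Krt15, -3.79 for Tchh, -3.32 for Cyp2b19, -3.30 for Hrnr, -3.30 for Krt23, -1.63 for Casp14, -1.31 for Cstdc5 and -1.48 for Pla2g4f. In genes of adhesion and cell surface it was -2.74 for Muc15, -2.15 for Ly6g6c, -1.93 for Evpl, -1.66 for Perp, -1.53 for Tjp3, -1.45 for Krt5, -1.33 for Dsc3, -1.17 for Fat2, -1.13 for Cxadr and -0.97 for Cgn. Transcription factor genes gave -3.32 for Dlx3, -2.95 for Msx2, -2.31 for Gata3, -1.95 for Irx4, -1.92 for Vdr and -0.79 for Sox9. Receptor and signalling genes gave -2.39 for Il22ra1, -2.17 for Wnt3, -1.47 for Nlrp10, -1.46 for Epha1, -1.25 for Rnf43, -1.06 for Ephb6 and -0.93 for Wwc1. Carrier and enzyme genes gave -2.32 for Slc39a2, -2.06 for Car12, -1.39 for Atp2c2, -1.29 for Atp6v1c2 and -1.26 for Slc39a8. Cd3eap, of RNA polymerase I, gave -0.78 and had not passed at E15.5.

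Genes with a higher effect at E17.5 were of several kinds. Genes with a larger rise over control, or a rise at E17.5 alone, gave 7.55 for Psca, 3.72 for Msln, 3.59 for Sprr1b, 3.13 for Ptgs2, 2.99 for Krt13, 2.79 for Krt7, 1.91 for Serpina3n and 1.19 for Tnc. A larger rise over control need not be a higher knockout level. Psca was at 102 and 129 CPM in E15.5 knockouts and 28.4 and 44.1 CPM in E17.5 knockouts. Its controls were at 25.1 and 41.4 CPM at E15.5 and 0.036 and 0.064 CPM at E17.5. Msln, Krt7 and Krt13 were also lower at E17.5 in both genotypes. Knockout levels of Ptgs2, Serpina3n and Tnc were higher at E17.5. Immune genes gave 2.11 for Itgam, 1.21 for Alox5ap, 1.10 for Ctss, 1.02 for Il4ra, 0.90 for Stat2 and 0.63 for Laptm5. Others gave 1.01 for Thbs1, 0.96 for Cpt1b, 0.84 for Peg10, 0.82 for Rxrg and 0.66 for Hif3a. Of these, Peg10 and Hif3a were lower at E17.5 in both genotypes, and knockout levels of Thbs1, Cpt1b and Rxrg were higher at E17.5. Kcnj12 (2.33) and Smpd1 (0.71) fell at both stages and by less at E17.5, and Atp6v1b2 (0.58) fell at E15.5 and did not pass at E17.5. Cbr2 (2.13) and Sprr2h (2.13) fell at E15.5 and rose at E17.5. The Psca value rests on 3 control counts at E17.5.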

How the results depend on the processing

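The labels number the replicates but name no shared litter or day, and same-numbered libraries did not deviate together (correlation of deviations from the group means 0.0425 at E15.5 and -0.0698 at E17.5). With the replicate number as a block, 4481 genes rose, 4477 fell, and the effect was higher at E17.5 for 524 genes and lower for 482. The number of genes with a higher effect was 517 in DESeq2 and 142 with library totals, and of those with a lower effect 655 with library totals. Leaving out each library in turn gave 3387 to 3857 risen and 3433 to 3763 fallen genes, 122 to 353 with a higher and 255 to 392 with a lower effect. Of 180 genes named in the report, 172 kept direction and call in each of the 13 settings that gave them a value. Changes near 0 turned sign with library totals for Atp6v1c1 (-0.17), Polr3gl (-0.0757) and Ezh1 (-0.0077), and with 1 E17.5 library left out for Tjp1 (-0.2646 to 0.1193, above 0 without control replicate 1) and Atp6v1c1 (-0.0176 to 0.0741, under 0 without control replicate 1 or knockout replicate 2); none of these values passed the test. With 1 library left in a group, its spread was assumed to be that of the other groups. The 2 libraries per group limit every test, and genes with few counts in a group have fold changes that move with 1 library.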
